A study of Homo sapiens with 12 samples.

Results

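The secretases are the proteases that cut the amyloid precursor protein (APP) at the cell surface and in endosomes. α-Secretases shed its ectodomain within the amyloid-β (Aβ) sequence, β-secretase cuts at the start of that sequence, and γ-secretase, a membrane complex, then cuts the remaining stub inside the membrane and frees Aβ. The same enzymes process Notch, cadherins and many other membrane proteins, so a neuron-like cell uses them for far more than APP. Their genes taken here were the α-secretase genes ADAM10 and ADAM17, the β-secretase gene BACE1 with its close relative BACE2, and the γ-secretase genes PSEN2, NCSTN, APH1A, APH1B and PSENEN. These are 9 of the 19775 genes with a probe set of their own on the array. They were chosen by name, with earlier results of these data known. Each was read from its brightest probe set with 1 gene symbol, the one with the highest mean over all arrays. Together the 9 genes had 24 probe sets among 54613.

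RNA came from SH-SY5Y cells, a human neuroblastoma line of noradrenergic character that grows as a neuron-like model. There were 12 Affymetrix arrays in 4 groups of 3: cells given oligomeric Aβ (6 h incubation), the 6 h control, cells given fibrillar Aβ (24 h incubation) and the 24 h control. Peptide form and hours changed together. The labels give no dose, do not say whether the hours are those of the peptide or of the cells, and tie no replicate to a culture of its own, so a p-value here reflects only how these arrays vary, which may be technical. A level below is a log2 MAS5 signal, a change is a difference of mean levels, and a gene was tested where its mean level reached the median of all probe sets (log2 3.78).

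Median levels of the arrays ran from 3.89 to 4.12, and with 3 arrays a group their number limits the precision. Of the noradrenergic neuroblastoma markers, 10 passed the filter, with GATA3 at 12.1 and DBH at 10.1, while TH, the first enzyme of noradrenaline synthesis, was at 0.73. Of 13 markers of epithelial, blood, endothelial, glial and mesenchymal cells, 4 passed (COL1A1, KRT18, EPCAM and PECAM1). The summed signals of all 13 were 433 to 488 in fibrillar arrays and 472 to 512 in 24 h controls. COL1A1, with a mean level of 8.35, was the brightest of the 13 and weighs most in these sums. KRT18, an epithelial keratin, stood at 4.31 ± 0.20 in fibrillar arrays and 5.25 ± 0.20 in 24 h controls (SD, n = 3 each). Whether other cells have a part in the changes below was not tested. Fibrillar replicate 1 had the largest difference between 3′ and 5′ probe sets among the 24 h arrays, for GAPDH (0.81, against 0.47 to 0.64 in the others) and for ACTB (3.06, against 2.34 to 2.78).

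Of the 9 secretase genes, 8 were measured above the filter, and APH1A, a scaffold subunit of γ-secretase, was the one called, close to the threshold. Its level fell with fibrillar Aβ to 8.97 ± 0.24 (SD, n = 3), against 9.39 ± 0.03 in the 24 h controls. It was 1 of 8 genes called by limma at an adjusted p under 0.05, where 1.19% of all 11774 genes were called, and its adjusted p was 0.0486. That call was lost in 11 of 12 fits with 1 array omitted and under 6 of 13 other settings, given below, with a negative change in all of them. No secretase gene passed with oligomeric Aβ or between the controls. In bulk RNA of a culture, fewer cells that use a gene and less RNA per cell cannot be told apart. The largest difference among the rest with fibrillar Aβ was that of ADAM17, 0.25 higher, which did not pass. BACE2 was near the floor of the array in every group. The plot of levels by array shows all 9 genes.

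**Figure D1:**
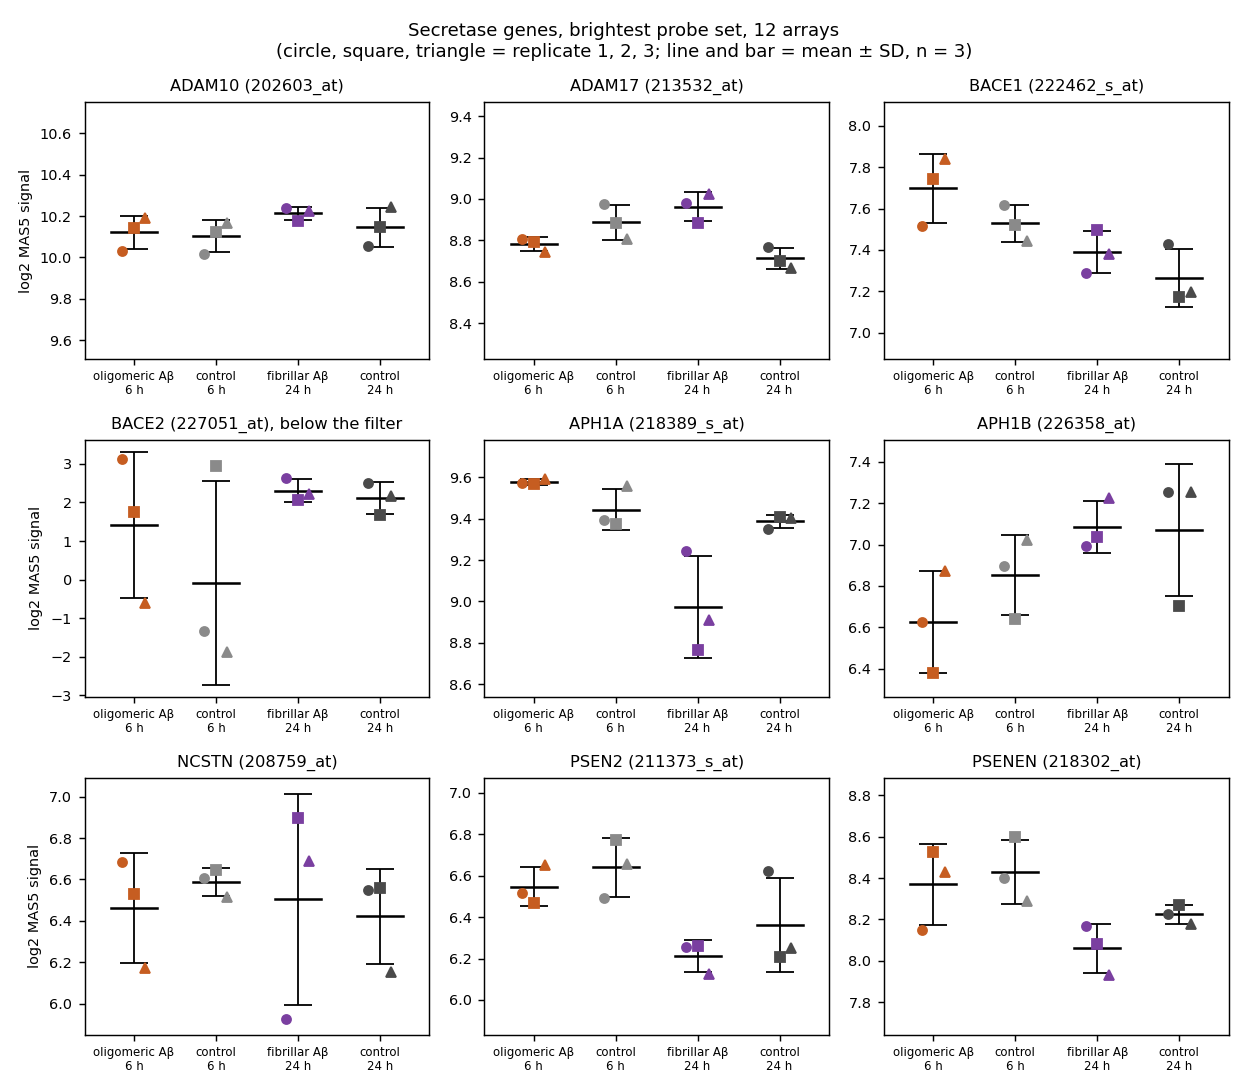
Each panel plots the log2 MAS5 signal of 1 secretase gene, read from its brightest probe set, on the 12 arrays, with a line and bar for the mean ± SD of each group of 3. The fibrillar arrays of APH1A lie below all others, the 24 h controls of ADAM17 include its lowest values, and BACE2 scatters below the filter.

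ADAM10, the main α-secretase of neurons, was the steadiest in group means. The levels of its brightest probe set, 202603_at, were 10.03, 10.14 and 10.19 with oligomeric Aβ and 10.02, 10.12 and 10.17 in the 6 h controls. They were 10.24, 10.18 and 10.22 with fibrillar Aβ and 10.05, 10.15 and 10.24 in the 24 h controls. The 12 arrays spanned 0.23 and every group overlapped the next. The change was 0.02 with oligomers (95% interval −0.13 to 0.17) and 0.07 with fibrils (−0.08 to 0.22), so a difference above 0.22 in either direction lies outside both intervals for this probe set. Its other probe sets, 214895_s_at and 202604_x_at, gave −0.13 and −0.01 with fibrils, with wider intervals of −0.47 to 0.21 and −0.37 to 0.36.

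ADAM17, the TNF-α converting enzyme, which cuts APP when protein kinase C is stimulated, had the lowest pooled spread of the 8 genes. Its standard deviation within groups was 0.06, at the 4.15th percentile of all tested genes, and that of ADAM10 was 0.08, at the 8.41st percentile. The levels of ADAM17 (213532_at) were 8.98, 8.88 and 9.02 with fibrillar Aβ, against 8.77, 8.70 and 8.67 in the 24 h controls. Every fibrillar array lay above every 24 h control. The change was 0.25 (SE 0.07, 95% interval 0.09 to 0.41, limma adjusted p = 0.13), which missed the threshold. With oligomeric Aβ the levels were 8.81, 8.79 and 8.75, against 8.97, 8.89 and 8.80 in the 6 h controls, a change of −0.11 (SE 0.07) with overlapping groups. The 24 h controls were the lowest group and the fibrillar arrays overlapped the 6 h controls. The other probe sets did not repeat the separation of fibrillar arrays from 24 h controls, as their groups overlapped. With fibrils 205745_x_at gave 0.16, in the same direction (95% interval −0.10 to 0.42), and 205746_s_at gave −0.05.

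BACE1, the aspartyl protease that makes the first cut towards Aβ, had on its brightest probe set, 222462_s_at, levels of 7.51, 7.74 and 7.84 with oligomeric Aβ, against 7.62, 7.52 and 7.44 in the 6 h controls. With fibrillar Aβ they were 7.29, 7.50 and 7.38, against 7.43, 7.17 and 7.20 in the 24 h controls. Both pairs of groups overlapped, with changes of 0.17 (95% interval −0.07 to 0.41) and 0.13 (−0.11 to 0.36). The order of means was oligomeric, 6 h control, fibrillar, 24 h control, each overlapping the next. A further probe set of the gene, 217904_s_at, had 7.44, 7.44 and 7.55 with fibrillar Aβ, against 7.34, 7.19 and 7.31 in the 24 h controls, without overlap and with a change of 0.20 (95% interval −0.05 to 0.45, adjusted p = 0.499 in the fit of every probe set). The probe sets 222463_s_at and 224335_s_at gave 0.05 and −0.33, and all 4 intervals included 0.

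BACE2, which cuts APP within the Aβ sequence and is abundant outside the brain, had 3 probe sets with mean levels of 0.89 to 1.44, all under the filter. Its brightest, 227051_at, had 3.13, 1.76 and −0.61 with oligomeric Aβ and −1.33, 2.94 and −1.89 in the 6 h controls. It had 2.64, 2.06 and 2.23 with fibrillar Aβ and 2.49, 1.69 and 2.18 in the 24 h controls. All are signals under 9 units, against a signal of 13.8 at the filter. At such values the log2 scale spreads noise widely, and with no filter the interval for fibrils ran from −2.42 to 2.80. No response of BACE2 can be read from these arrays.

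APH1A helps to assemble and stabilise the γ-secretase complex. The levels of its brightest probe set, 218389_s_at, were 9.24, 8.76 and 8.91 with fibrillar Aβ, against 9.35, 9.41 and 9.41 in the 24 h controls. All 3 fibrillar arrays lay below all 9 others. The change was −0.41 (SE 0.10, 95% interval −0.62 to −0.21, limma adjusted p = 0.0486), a fold of 0.75. With oligomeric Aβ the levels were 9.57, 9.57 and 9.59, against 9.40, 9.38 and 9.56 in the 6 h controls. These groups did not overlap either, with the oligomeric arrays higher, but the change of 0.13 (SE 0.10, 95% interval −0.07 to 0.34) did not pass. The fibrillar response less the oligomeric response was −0.55 (SE 0.14, 95% interval −0.84 to −0.26, unadjusted p = 0.00102 and adjusted p = 0.198 in limma), which missed the threshold over all genes.

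The 3 probe sets of APH1A differed in level and in part in direction. The next brightest, 1554417_s_at, had 5.45, 5.08 and 5.42 with fibrillar Aβ, against 5.78, 5.81 and 5.97 in the 24 h controls. These did not overlap, and the change was −0.54 (SE 0.24, adjusted p = 0.336 in the fit of every probe set). The dimmest, 237327_at, had 4.58, 4.05 and 4.96, against 4.56, 4.24 and 4.67 in the 24 h controls, a change of 0.04 (SE 0.30) with overlap. With oligomers the 3 changes were 0.13, 0.39 and 0.16, all positive and none of them called.

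**Figure D2:**
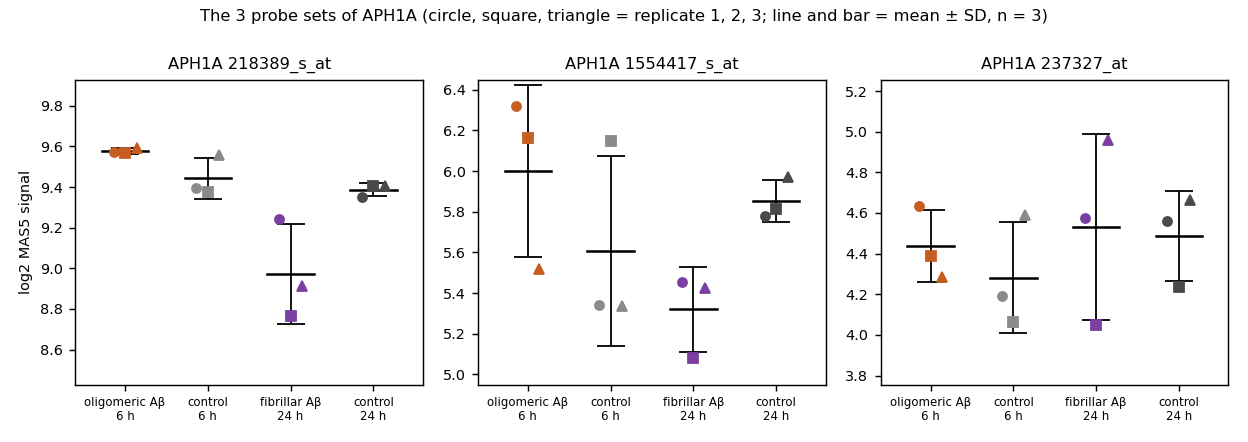
The log2 MAS5 signal of the 3 probe sets of APH1A on the 12 arrays, with a line and bar for the mean ± SD of each group of 3. In the panels of 218389_s_at and 1554417_s_at the 3 fibrillar arrays lie below the 3 controls of 24 h, with changes of −0.41 and −0.54, and in that of 237327_at they overlap.

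The call of APH1A lay close to the threshold. Of 12 fits with 1 array omitted, 1 kept it, the fit without fibrillar replicate 1, where the change was −0.55 (adjusted p = 0.00353). That array had the highest APH1A level of its group and the largest 3′ to 5′ differences among the 24 h arrays. With the 3′ to 5′ difference as a covariate, a fit chosen after seeing the data, the change was −0.53 (limma adjusted p = 0.0429). Without fibrillar replicates 2 and 3 the changes were −0.31 and −0.38 (adjusted p = 0.111 and 0.205), and over the 12 fits the change stayed between −0.55 and −0.31. The call was lost with the 2 groups alone (adjusted p = 0.11), with no filter (0.0669), with a constant prior variance (0.182), with every probe set (0.0628), after median centring (−0.34, 0.167) and with the mean of probe sets (−0.30, 0.371). The spread was unequal, with SDs of 0.24 in fibrillar arrays and 0.01 to 0.10 in the other groups, while the SE uses 1 spread for all. The change was negative in all 25 alternative fits.

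**Figure D3:**
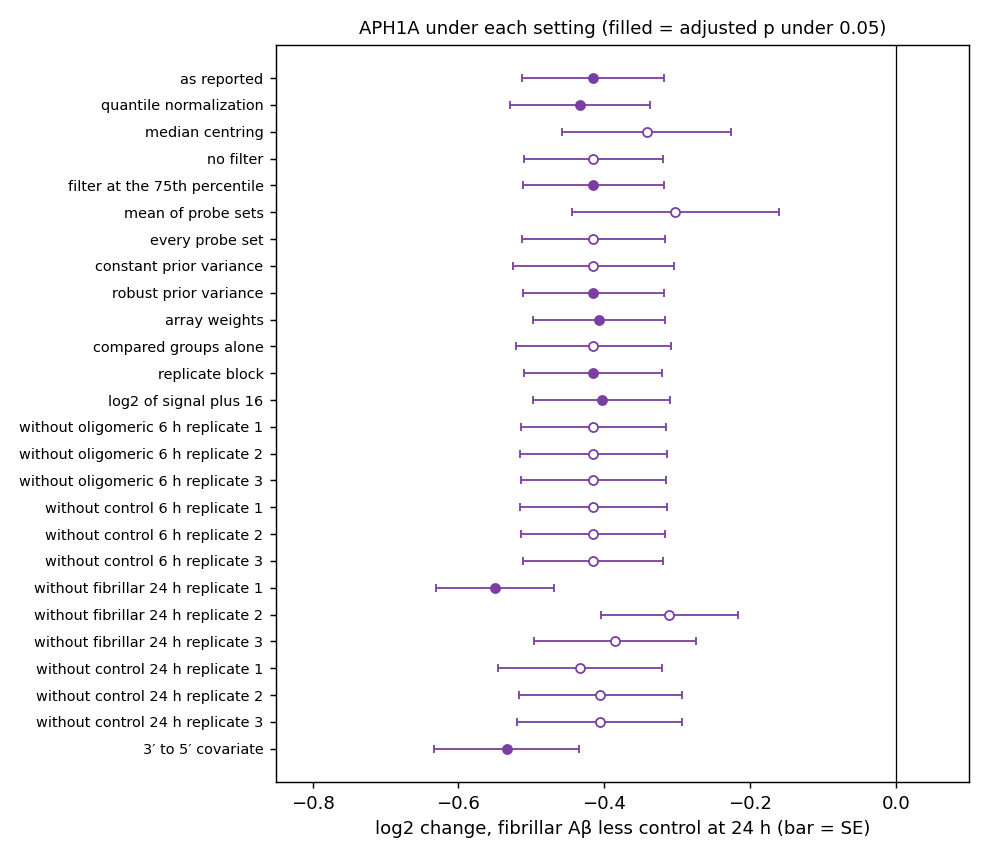
The log2 change of APH1A with fibrillar Aβ less the 24 h control (x axis) as reported and under 25 alternative settings (y axis), with bars for the SE and filled points where the limma adjusted p was under 0.05. All points lie between −0.55 and −0.30, and most of those that leave out an array are open.

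APH1B, the alternative scaffold subunit, stood, on 226358_at, at 6.99, 7.04 and 7.23 with fibrillar Aβ, against 7.25, 6.70 and 7.25 in the 24 h controls. The groups overlapped, with a change of 0.01 (95% interval −0.34 to 0.37). Its dimmer probe set, 221036_s_at, had 5.23, 5.23 and 5.17 with fibrillar Aβ, against 5.25, 5.52 and 5.66 in the 24 h controls, without overlap and with a change of −0.27 (95% interval −0.72 to 0.18). A difference between the 2 scaffold genes was not tested. With oligomeric Aβ the change was −0.22 (SE 0.17).

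PSENEN encodes PEN-2, the small subunit that completes the complex and lets presenilin mature. Its levels (218302_at) were 8.17, 8.08 and 7.93 with fibrillar Aβ, against 8.23, 8.27 and 8.18 in the 24 h controls. The fibrillar arrays lay below the controls, narrowly for replicate 1, and the change of −0.16 (SE 0.11, 95% interval −0.39 to 0.06, limma adjusted p = 0.539) did not pass. With oligomers the change was −0.06 and the groups overlapped. PSENEN had 1 probe set.

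PSEN2 encodes presenilin 2, which carries the catalytic aspartates of γ-secretase. Its brightest probe set, 211373_s_at, had 6.25, 6.26 and 6.12 with fibrillar Aβ, against 6.62, 6.21 and 6.25 in the 24 h controls, with overlap and a change of −0.15 (95% interval −0.45 to 0.16). A probe set of nearly the same brightness, 204262_s_at, had 6.39, 6.30 and 6.28, against 5.94, 6.24 and 6.04 in the 24 h controls. There the fibrillar arrays lay above the controls, with a change of 0.25 (95% interval −0.05 to 0.55). The probe sets of this gene therefore gave opposite signs for fibrils. With oligomers they gave −0.09 and −0.04. The remaining one, 204261_s_at, was under the filter, at a mean of 1.70.

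NCSTN encodes nicastrin, the glycoprotein that admits substrates to γ-secretase, and of the 8 tested genes it varied most between replicates. The levels of its brightest probe set, 208759_at, were 5.93, 6.90 and 6.69 with fibrillar Aβ, against 6.55, 6.56 and 6.15 in the 24 h controls. With oligomeric Aβ they were 6.68, 6.53 and 6.17, against 6.61, 6.65 and 6.51 in the 6 h controls. Within groups the SD was 0.31, at the 81.9th percentile of all tested genes, and the intervals for both preparations reached past 0.5 to one side (−0.37 to 0.53 with fibrils and −0.58 to 0.32 with oligomers). NCSTN was lowest in fibrillar replicate 1, where APH1A was highest within the group. The second probe set of NCSTN, 237076_at, was under the filter, at a mean of 3.09. With the 3′ to 5′ difference as a covariate, a fit chosen after seeing the data, the change of NCSTN with fibrils was 0.38 in place of 0.08. With oligomers it was −0.34 in place of −0.13, and neither was called. Whether RNA quality is the cause of the spread was not tested.

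With fibrillar Aβ, limma called 1 of the 8 secretase genes as lower, where 0.391% of all genes were, and 0 as higher, where 0.798% were. The median change of the 8 was 0.04, against −0.00053 over all genes. Groups did not overlap for 1 gene as higher, ADAM17, where 10.9% of all genes were so, and for 2 as lower, APH1A and PSENEN, where 8.73% were (19.7% in either direction). At an unadjusted p under 0.05 there were 2, APH1A and ADAM17, where 14.2% of all genes had one. With oligomeric Aβ limma called 0 of 8, where 0% of all genes were called, with 0 at an unadjusted p under 0.05 (2.78% of all genes) and a median change of −0.08 against −0.0046 over all genes. Groups did not overlap for 1, APH1A, as higher, where 3.6% of all genes were so (7.36% in either direction).

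**Figure D4:**
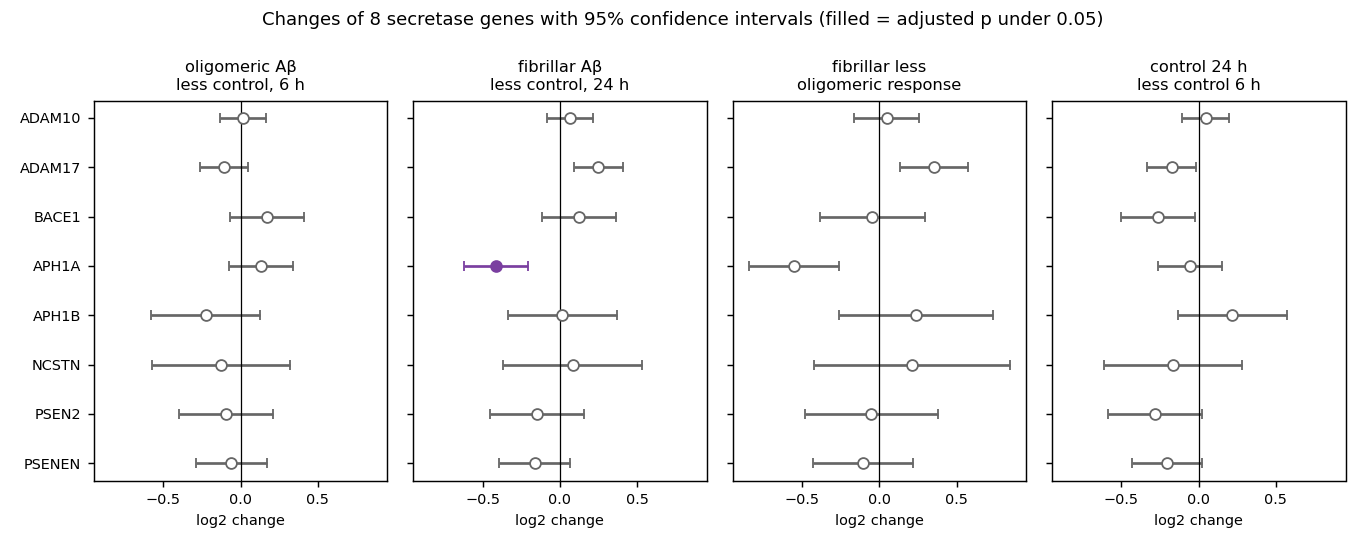
The log2 change (x axis) of the 8 tested secretase genes (y axis) in each comparison, with 95% confidence intervals from limma and a filled point where the adjusted p was under 0.05. APH1A with fibrillar Aβ, at −0.41, is the only filled point, and the intervals of ADAM17 with fibrils and for the difference of responses lie above 0.

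The difference of the fibrillar and oligomeric responses was called by limma for 0 of 8 genes, where 0.0425% of all genes were called. At an unadjusted p under 0.05 there were 2 of 8 (8.53% of all genes). These were APH1A, above, and ADAM17, with a difference of 0.36 (SE 0.10, 95% interval 0.13 to 0.58, adjusted p = 0.293). For ADAM17 it joined a response of 0.25 to fibrils and one of −0.11 to oligomers. For BACE1 the difference was −0.05 (95% interval −0.38 to 0.29) and for ADAM10 0.05 (−0.16 to 0.26).

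Between the controls, 24 h against 6 h, limma called 0 of 8 secretase genes, where 11.7% of all genes were called. At an unadjusted p under 0.05 there were 2 (26.6% of all genes), BACE1 with −0.26 (95% interval −0.50 to −0.02, adjusted p = 0.146) and ADAM17 with −0.18 (−0.33 to −0.02, adjusted p = 0.141). For BACE1, ADAM17 and PSENEN every 24 h control lay below every 6 h control (18.9% of all genes were lower in this way). After centring on the array median, where the median change of all genes was −0.15 (−0.016 without it), the change of BACE1 was −0.39 and passed (adjusted p = 0.0465). BACE1 also had a probe set with the opposite sign, 217904_s_at, at 0.18. The control groups also stood apart in signs of RNA quality. The difference between 3′ and 5′ probe sets was 0.47 to 0.52 for GAPDH and 2.34 to 2.65 for ACTB in 24 h controls, against 0.77 to 0.83 and 2.82 to 3.25 in 6 h controls. A probe set for 18S ribosomal RNA read 11.41 to 11.79 in 24 h controls, against 9.31 to 10.25 in 6 h controls, and 11.80 to 11.85 in fibrillar arrays. With the 3′ to 5′ difference as a covariate, a fit chosen after seeing the data, 467 genes in place of 1375 were called between the controls. The changes were then −0.37 for BACE1, −0.23 for PSENEN and −0.10 for ADAM17. NCSTN had −0.72 in place of −0.17 (unadjusted p = 0.0146 and adjusted p = 0.135 in limma). APH1A turned sign, with 0.17 in place of −0.06. None of these was called. The 24 h controls enter the fibrillar comparison as well, so a low value of ADAM17 or BACE1 in them bears on both.

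Probe sets of a single gene did not always agree in sign. Several probe sets passed the filter for 6 secretase genes, and 0 of the 6 had the same sign in all of them with fibrils, where 42.8% of 5838 such genes did. With oligomers 2 did, APH1A and PSEN2, where 38.6% of such genes did. These shares were not matched for the number of probe sets, and more probe sets give more room to differ in sign. That number was 4 for BACE1, 3 for APH1A, ADAM10 and ADAM17, and 2 for PSEN2 and APH1B. Of the 24 probe sets, 13 carry the suffix _s_at and 3 the suffix _x_at, by which the array maker marks probes shared between transcripts or open to cross-hybridization. Averaging the probe sets turned the sign of PSEN2, APH1B and ADAM10 with fibrils and of BACE1, ADAM10 and ADAM17 with oligomers. None of these changes was called.

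**Figure D5:**
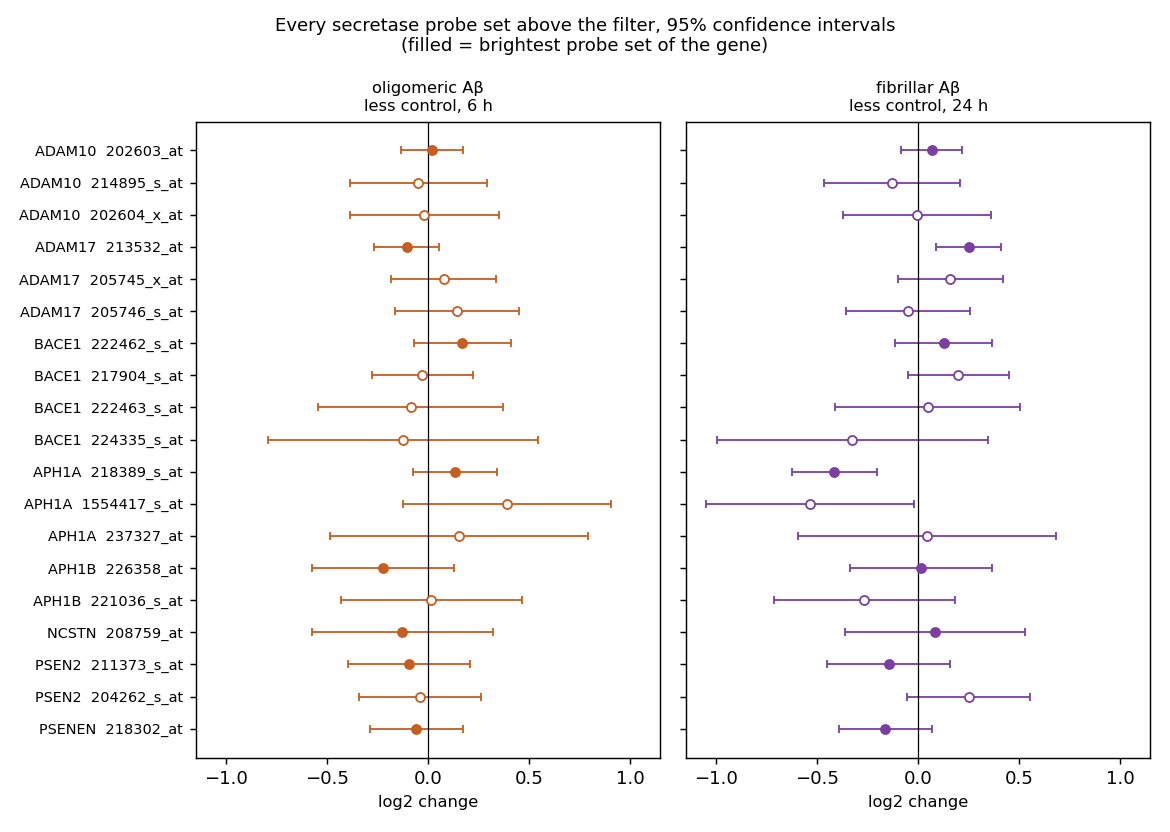
The log2 change (x axis) of every secretase probe set above the filter (y axis) with oligomeric Aβ and with fibrillar Aβ, each less its own control, with 95% confidence intervals and a filled point for the brightest probe set of the gene. Intervals widen for the dimmer probe sets, and with fibrils no gene with several probe sets has all of its points on 1 side of 0.

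The genes whose levels across the 12 arrays were most like those of APH1A, by Pearson correlation among all tested genes, were PEX26, a peroxisomal import protein (r = 0.97), SMG1P5, a pseudogene of the kinase SMG1 (r = 0.96), and PTOV1 (r = 0.94). The points share the 4 groups and the array scaling, and these are the highest of all tested genes. PEX26 had 5.72 ± 0.64 with fibrillar Aβ and 6.39 ± 0.07 in the 24 h controls, and PTOV1 had 6.62 ± 0.25 and 7.07 ± 0.13 (SD, n = 3 each).

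RefSeq promoter sequence (GRCh38.p14) was at hand for 7 of the 9 genes, as the 250 bases before each start. It is given as the start region of APH1A, the secretase gene called close to the threshold, and for what the promoters share. Their GC content ran from 61.2% to 75.6%, against a median of 58.0% over 27303 promoters. On either strand, 0 of 7 held a TATA box (TATAAA, in 11.1% of all promoters), 0 an AP-1 site (TGANTCA, in 6.6%) and 0 a cAMP response element (TGACGTCA, in 1.77%). A GC box (GGGCGG, in 42.3%) stood in 5 of 7. A CCAAT box (CCAAT, in 33.0%) stood in 1, that of APH1A, which held 2. The motifs do not overlap each other there, and a match is a description of letters, not a bound site. The APH1A sequence lies at chr1:150269017-150269266 on the minus strand, with the CCAAT boxes and the GC box, all in the reverse orientation, in capitals.
APH1A: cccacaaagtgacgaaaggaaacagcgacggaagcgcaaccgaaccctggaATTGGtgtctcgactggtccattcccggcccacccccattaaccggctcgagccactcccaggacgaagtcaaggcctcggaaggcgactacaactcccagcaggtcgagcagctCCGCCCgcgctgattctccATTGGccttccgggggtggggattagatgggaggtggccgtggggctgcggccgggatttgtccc

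Around the secretases, the substrates held the other calls with fibrils. Of 29 tested substrate genes, 2 were called as higher (6.9%, against 0.798% of all genes) and 0 as lower, with a median of 0.03. The list was chosen with earlier results of these data known, so the 2 shares are not an independent comparison. Under several of the settings in the closing section the count was 0. CDH2, N-cadherin, which ADAM10 sheds and γ-secretase then cuts, rose by 0.43 (SE 0.10, adjusted p = 0.0474), with 11.99 ± 0.21 in fibrillar arrays and 11.56 ± 0.14 in the 24 h controls (SD, n = 3 each). Its other probe set gave 0.07. With 1 of the 24 h arrays omitted the call was kept in 1 of 6 fits, that without fibrillar replicate 2 (0.55, adjusted p = 0.00537). APP was higher by 0.74 (adjusted p = 0.0454) on its brightest probe set. Its levels were 9.93, 10.72 and 10.93 in fibrillar arrays, against 9.71, 9.71 and 9.96 in the 24 h controls, which overlap. The 24 h controls were its lowest group (mean 9.79), and the fibrillar mean of 10.53 lay below that of the 6 h controls (10.68). The call was likewise kept in 1 of 6 fits, that without fibrillar replicate 1 (1.04, adjusted p = 4.1e-05), and its other probe sets gave 0.51 and −0.35.

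No other list of the pathway had a member called with fibrils. In limma, the partners of the α-secretases (sheddases, TspanC8 tetraspanins, iRhoms and inhibitors) had 0 of 17 called (1.19% of all genes) and 6 at an unadjusted p under 0.05 (14.2% of all genes), with 12 of 17 changes negative and a median of −0.20. TSPAN10, a tetraspanin that carries ADAM10, had the smallest p, with 4.58 ± 0.22 in fibrillar arrays and 2.20 ± 1.57, below the filter, in the 24 h controls (adjusted p = 0.0753). Genes of BACE1 traffic and turnover had 0 of 19 called and 3 at an unadjusted p under 0.05, a share near that of all genes. Of their 19 changes 16 were positive and 3 negative, with a median of 0.10, against −0.00053 over all genes. GGA3, an adaptor that sends BACE1 to lysosomes, was among the negative ones and differed by −0.34 (adjusted p = 0.283). The γ-secretase modulators and presenilin relatives had 0 of 16 called and 1 at an unadjusted p under 0.05, a share below that of all genes. Of their 16 changes 10 were negative, with a median of −0.06. UBQLN1, which binds presenilins, differed by 0.14 (adjusted p = 0.338). The Notch list, of transcription factors, targets and regulators such as NUMB and LFNG, had 0 of 15 called and 1 at an unadjusted p under 0.05. That share was again below that of all genes. Of the 15 changes 8 were positive, with a median of 0.03. NRARP, a Notch target, differed by −0.32 (adjusted p = 0.34).

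With oligomers limma called 0 members of these 5 lists, where 0% of all genes were called. Of all their members 2, both substrates, had an unadjusted p under 0.05, a share near the 2.78% of all genes, and the list medians ran from −0.04 to −0.0037. Smallest in p, 1 from each list, were the tetraspanin gene TSPAN33 (0.33), the sorting nexin gene SNX12 (0.24), the ubiquitin ligase gene STUB1 (−0.08), the adhesion gene NCAM1 (−0.17) and HES6 (0.19), a regulator of Notch effectors.

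Between the controls, 24 h against 6 h, each list had calls, where 3.76% of all genes rose and 7.92% fell and where the signs of RNA quality differed as given above. Among the α-secretase partners 2 of 17 were called. SFRP1, a secreted protein that inhibits ADAM10, rose by 0.67 (adjusted p = 0.00433), and ADAM9, a further sheddase, fell by 0.30 (0.0268). Among the genes of BACE1 traffic and turnover 2 of 19 fell, EIF2S1, the translation factor eIF2α, by 0.29 (0.00762) and ARF6, a GTPase of BACE1 endocytosis, by 0.27 (0.0141). EIF2S1 had 0.02 as the mean of its probe sets. Among the γ-secretase modulators 1 of 16 rose, TMEM59, a Golgi protein that alters APP maturation, by 0.28, and 2 fell, STUB1 by 0.31 and BSG, which encodes CD147, by 0.44. Of the substrates 1 of 29 rose, the protocadherin gene PCDH9 by 0.66, and 3 fell, among them APP by 0.89 (with −0.04 and 0.51 on its other probe sets) and the adhesion receptor gene CD44 by 0.97. Of the Notch list 1 of 15 rose, the DNA-binding factor gene RBPJ by 0.30, and 2 fell, the target gene HES4 by 0.95 and the glycosyltransferase gene LFNG by 0.59. With the 3′ to 5′ difference as a covariate, chosen after seeing the data, APP alone of the genes named here stayed called. It had −1.23 (limma adjusted p = 0.00849). SFRP1 narrowly missed the threshold (adjusted p = 0.054), and LFNG had −0.30 (adjusted p = 0.577).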

How the data were processed

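The authors deposited log2 signals per probe set for 12 Affymetrix arrays. The submitters' processing notes name MAS5, and its version is not given in the sources used here. After 2% was trimmed from each end, the mean linear signal was the same on every array, so they had been scaled to a common target. Values were used without further normalization. Gene symbols came from GEO's platform annotation, updated through Entrez identifiers in RefSeq (41043 probe sets matched).

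Control probe sets (62) and probe sets with several symbols (1801) or none (11721) were left out. Each of 11774 genes with a mean at or above the median was read from its brightest probe set. A group-means model over 4 groups was fitted with limma 3.58.1 in R 4.3.3, the prior variance following the level, with Benjamini-Hochberg adjustment over all genes. Intervals are 95% intervals of the moderated fit. The procedure was tested on simulated data, in which each gene had the same spread in every group and the changes were 1.5-fold or larger. That test did not cover a change as small as the fold of 0.75 of APH1A with fibrils, nor its unequal spread.

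Members and lists were chosen with earlier results of these data known. Named list genes were up to 2 called in each direction with the smallest p, or the 1 with the smallest p, in each list and comparison, with the 3 genes most like a called secretase gene. The labels do not tie replicate numbers to a culture or day, so they were not used as pairs. The alternative settings are given in the closing section.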

Additional observations from a re-analysis of the deposited data

Results flagged for a closer look

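For APH1A every oligomeric array lay above every 6 h control (change 0.13, which was not called) and every fibrillar array below every 24 h control (−0.41). The difference of these responses was tested, at −0.55 with a limma adjusted p of 0.198, and did not pass. Without fibrillar replicate 1 it was −0.68 (adjusted p = 0.0114). Over the 24 alternative fits the adjusted p ran from 0.0114 to 0.481 and the difference from −0.75 to −0.41. Peptide form and hours cannot be told apart here.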

How the results depend on the processing

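With fibrils the count of secretase genes called was 1 and fell to 0 with median centring, no filter, every probe set or their mean, a constant prior variance, the 2 groups alone or a 1.5-fold threshold as well, and was 0 to 1 with single arrays left out. It was 0 to 1 for the difference of responses, where the call, without fibrillar replicate 1, was APH1A, and 1 between the controls after median centring (BACE1). The α-secretase partners had 0 called with fibrils, and 1 with median centring, the mean of probe sets, every probe set, array weights, the replicate block or an adjusted p under 0.10, and 0 to 1 with arrays left out. The substrates had 2 called, 1 with a robust prior, a 1.5-fold threshold or the 3′ to 5′ covariate, 0 with quantile normalization, every probe set or their mean, no filter, a constant prior or the 2 groups alone, and 0 to 1 with arrays left out. The cause of these changes was not tested.

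Over all genes the fibrillar count of 140 became 62 with the mean of probe sets, 79 with no filter, 7 with a constant prior, 268 with array weights, 35 with the 2 groups alone, 269 at an adjusted p under 0.10, 74 with a 1.5-fold threshold and 39 with the 3′ to 5′ covariate, and 14 (without 24 h control replicate 1) to 185 (without fibrillar replicate 2) with arrays left out. The count of 5 for the difference became 3 (quantile normalization, mean of probe sets, every probe set, replicate block), 13 (median centring), 0 (constant prior), 27 (array weights), 8 (signal plus 16), 20 (adjusted p under 0.10) and 1 (covariate), and 0 to 64 (without fibrillar replicate 2) with arrays left out. The count of 1375 between the controls became 438 (1.5-fold) and 467 (covariate), and 719 to 1467 with arrays left out. For oligomers it was 0 to 1.

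Signs turned for uncalled changes and for 1 called gene. With oligomers the mean of probe sets gave −0.017 for BACE1, −0.016 for ADAM10 and 0.038 for ADAM17, and median centring −0.046 for ADAM10. With fibrils the mean of probe sets gave 0.051 for PSEN2, −0.13 for APH1B and −0.023 for ADAM10, and APH1B had −0.00043 with array weights and −0.020 with the covariate. For the difference BACE1 had 0.093 (median centring), 0.027 (mean of probe sets) and 0.057 (covariate), PSEN2 0.0034 (quantile normalization), 0.085, 0.12 and 0.057 (the same settings), PSENEN 0.033 (median centring), and the mean of probe sets gave −0.022 for APH1B and −0.0070 for ADAM10. Between the controls APH1A had 0.13 (mean of probe sets) and 0.17 (covariate), ADAM10 −0.086 (median centring), ADAM17 0.061 and EIF2S1, a called gene, 0.020 (both mean of probe sets).

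With arrays left out, oligomeric changes ran from −0.24 to 0.020 for NCSTN, −0.14 to 0.051 for PSENEN and −0.025 to 0.064 for ADAM10, fibrillar changes from −0.11 to 0.37 for NCSTN and −0.17 to 0.11 for APH1B, the difference from −0.14 to 0.036 for BACE1 and −0.13 to 0.077 for PSEN2, and the control change from −0.089 to 0.0022 for APH1A and −0.0030 to 0.091 for ADAM10. Same-numbered arrays correlated at −0.023 to 0.089 after removal of group means. Yet each fibrillar array was most like the 24 h control of its own number, and each 24 h control most like the 6 h control of its own number. Among oligomeric arrays this held for replicate 2 but not for replicates 1 and 3. With the replicate as a block, 184 genes in place of 140 were called with fibrils and 1570 in place of 1375 between the controls. Whether the numbers mark pairs was not tested, and they were not taken as pairs because the labels do not tie them to a culture. With the replicate as a block APH1A had −0.41 with fibrils (adjusted p = 0.0462) and the secretase count stayed 1. The 3′ to 5′ covariate was chosen after seeing the data. With median centring the median change of all genes was −0.15 between the controls and 0.15 for the difference.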

Other observations

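SFRP1, a secreted inhibitor of ADAM10, was picked out after its values were seen. Its probe set 202035_s_at had 4.93 ± 0.26 with fibrillar Aβ and 6.04 ± 0.22 in the 24 h controls (SD, n = 3 each), and it fell by 1.11 (SE 0.22, adjusted p = 0.039 in limma over every probe set). The probe sets 202036_s_at and 202037_s_at, the last being the brightest, differed by −0.71 (adjusted p = 0.149) and −0.40 (0.19), so all 3 above the filter had the same sign. Between the controls the same 3 had positive changes of 0.43, 0.59 and 0.67 at 24 h, and both comparisons share the 24 h controls.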
